A study of Homo sapiens with 39 samples.

Results

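PCA3, PCGEM1, ARLNC1, DRAIC, NEAT1 and MALAT1 are long noncoding RNA (lncRNA) genes, chosen by name from the 63187 genes of the count table, 18852 of which are annotated as lncRNA genes. They were followed through 39 RNA-seq libraries of C4-2B, a castration-resistant prostate cancer line derived from LNCaP, in 13 groups of 3 libraries. In the drug panel (21 libraries, 5 days of treatment) the cells received DMSO vehicle, abiraterone at 5 µM, enzalutamide at 20 µM, olaparib at 1 µM or talazoparib at 10 nM. The combination groups received abiraterone with olaparib, or enzalutamide with talazoparib, at those same doses. In the time course (18 libraries) they received DMSO or olaparib at 1 or 5 µM for 1 or 5 days. Abiraterone and enzalutamide are androgen pathway inhibitors (ARPi): abiraterone blocks the enzyme CYP17A1 in androgen synthesis and enzalutamide blocks androgen action. Olaparib and talazoparib are inhibitors of poly(ADP-ribose) polymerase (PARPi). All 13 groups share this 1 cell line, grown in RPMI with fetal bovine serum. The labels do not say that replicates came from separate cultures, so p-values measure the spread between these libraries, which may be technical.

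Long noncoding RNAs are transcripts without a protein product that act in the nucleus or the cytoplasm. PCA3 and PCGEM1 were named for their expression in prostate and prostate cancer, and PCA3 is measured in urine as a prostate cancer marker. ARLNC1 is a lncRNA induced by androgen, and DRAIC was named as a downregulated RNA in cancer that inhibits invasion. NEAT1 is the RNA scaffold of paraspeckles, nuclear bodies built by RNA-binding proteins such as NONO and SFPQ, and its locus is a known target of p53. MALAT1 is an abundant RNA of nuclear speckles, the bodies that store splicing factors.

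On GRCh38 with GENCODE v44 coordinates, NEAT1 (ENSG00000245532.11, chr11:65422774-65445540, plus strand) and MALAT1 (ENSG00000251562.11, chr11:65497640-65508073, plus strand) are neighbours, with the protein-coding gene FRMD8 on the other side of NEAT1. ARLNC1 (ENSG00000260896.6) lies at chr16:80826074-80892682 on the minus strand between CDYL2 and CMC2, and DRAIC (ENSG00000245750.11) at chr15:69462921-69843120 on the plus strand between RPLP1 and TLE3. PCA3 (ENSG00000225937.3, chr9:76691980-76863307, plus strand) runs antisense inside PRUNE2. PCGEM1 (ENSG00000227418.6) lies at chr2:192749845-192776899 on the plus strand.

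The libraries were made by messenger RNA capture, so the 3′ end of each RNA bears on what was counted. The ends of the 3 members with the highest counts in panel DMSO are shown as the last 70 bases of annotated transcripts, 5′ to 3′ on the RNA's strand, with the hexamer AATAAA of the polyadenylation signal in capitals. NEAT1 has a short form and a long form, and the long form carries a run of 22 adenines far inside it, shown in capitals with 24 bases on each side.
ARLNC1-202, chr16:80828735-80828804, minus strand: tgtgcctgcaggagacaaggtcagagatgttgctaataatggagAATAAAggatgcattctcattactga
NEAT1-209, short form, chr11:65426444-65426513, plus strand: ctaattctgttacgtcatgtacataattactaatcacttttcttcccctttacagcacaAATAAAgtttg
NEAT1-202, long form, chr11:65445471-65445540, plus strand: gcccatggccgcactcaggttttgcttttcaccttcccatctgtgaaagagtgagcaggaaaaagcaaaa
NEAT1-202, adenine run, chr11:65440819-65440888, plus strand: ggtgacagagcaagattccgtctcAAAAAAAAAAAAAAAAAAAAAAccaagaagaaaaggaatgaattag
MALAT1-205, chr11:65506447-65506516, plus strand: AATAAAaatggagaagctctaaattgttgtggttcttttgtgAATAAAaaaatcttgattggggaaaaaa

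The hexamer began 26 bases before the end of ARLNC1-202, 11 bases before the end of NEAT1-209 and, at its last occurrence, 28 bases before the end of MALAT1-205. MALAT1-202, an annotated form of 10434 nt, has no hexamer in its last 70 bases. The hexamer was also absent from the last 70 bases of NEAT1-202, whose 22743 nt hold the adenine run from position 18046, and 39.2% of 56357 annotated lncRNA transcripts had it in that window. A run of at least 22 adenines occurs in 0.616% of 252835 annotated transcripts. As background, the 3′ ends of the long form of NEAT1 and of MALAT1 are cut by RNase P and need no poly(A) tail. The deposited values are per gene, so the short and long forms of NEAT1 cannot be told apart in what follows.

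Total counts ran from 26932205 to 49833473 per library in the panel and from 34214001 to 44893664 in the time course. The luminal prostate identity of the cells was clear from the 8 luminal markers examined, all counted in 39 of 39 libraries, and in CPM, counts scaled to a common library total, KLK3 reached 1818. Of these 8 markers 3 rose and 5 fell with either androgen pathway inhibitor. The basal markers KRT5 and TP63 had 16 and 10 counts in all, and the neuroendocrine markers CHGA and INSM1 had 21 and 5. Of each of these 2 lists 1 gene could be tested. The basal KRT14 fell with abiraterone and enzalutamide, by 1.86 and 3.27 on the log2 scale. It rose by 1.33 with olaparib and 1.18 with talazoparib in the panel and by 1.62 and 2.07 with 1 and 5 µM on day 5, and the 3 basal markers summed to at most 1.84 CPM in any library. The neuroendocrine SYP fell with each of the 4 drugs given alone in the panel, by 0.69 to 1.15. The 4 stromal and immune markers summed to 15.5 to 41.0 CPM in each library, nearly all from COL1A1 and CD68, while PTPRC had 330 counts in all. The share of mitochondrial counts was 9.68% to 10.1% in panel DMSO and 10.9% to 13.8% in the treated panel libraries. In the time course it was 8.24% to 9.28% with DMSO and 9.70% to 14.6% with olaparib.

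Levels are given as scaled CPM, the CPM after TMM scaling of the libraries within each experiment. Folds and adjusted p-values are from edgeR's quasi-likelihood test over all 18625 genes tested in the panel or 18502 in the time course, with Benjamini-Hochberg adjustment, and a gene was called at an adjusted p under 0.05. Of the 6 members 5 passed the filter on low counts, the exception being PCGEM1. It had 2 counts in all 39 libraries, 1 in a DMSO and 1 in a talazoparib library of the panel. The exact Poisson 95% upper limit on these 2 counts is 7.22, and no change in PCGEM1 was detectable at this depth. Such intervals cover counting error only.

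Per kilobase of the main annotated transcript, the order in panel DMSO was MALAT1 at 228, NEAT1 at 27.3, ARLNC1 at 8.82, DRAIC at 6.40 and PCA3 at 0.258 scaled CPM per kilobase (means, n = 3). The values depend on the length used, since the counts cover all isoforms. Per kilobase of the union of all annotated exons, in CPM without TMM scaling, MALAT1 was at 225, NEAT1 at 27.004, ARLNC1 at 2.99, DRAIC at 0.441 and PCA3 at 0.0426, the same order with other distances. For NEAT1 these 2 lengths, 22743 and 22767 nt, both cover the long form. Its level on the length of the short form NEAT1-209, 3301 nt, was not computed and would be higher. On the scale of the main transcript, no library of a member overlapped a library of its neighbour in this order in any of the 3 DMSO groups. The closest pair on that scale was ARLNC1 and DRAIC in DMSO at day 1, where ARLNC1 ran from 4.35 to 4.70 and DRAIC from 3.98 to 4.28 scaled CPM per kilobase. MALAT1 and NEAT1 together held 15.9% to 17.8% of all lncRNA counts in the panel DMSO libraries. That share was 24.5% to 26.3% with enzalutamide plus talazoparib and reached 28.2% to 30.6% with olaparib at 5 µM on day 5. In bulk RNA, fewer expressing cells and less RNA per cell cannot be told apart.

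Blocking the androgen pathway was followed by a deep fall of ARLNC1 and PCA3 and a smaller rise of DRAIC and MALAT1. Among the 5 tested members, 4 were called with abiraterone, where 52.9% of all genes tested were called, and 4 with enzalutamide, where 53.3% were. In each comparison 2 members rose and 2 fell, and NEAT1 was the member not called. Across the 3565 lncRNA genes tested in the panel, 990 were called with abiraterone and 1048 with enzalutamide. Mitochondrial shares were 10.9% to 11.5% with abiraterone and 11.3% to 12.3% with enzalutamide, above the DMSO range. The summed stromal and immune markers were 22.9 to 25.0 and 21.5 to 22.5 CPM, against 15.5 to 20.7 with DMSO, with 3 of the 4 called higher and 1 lower with either drug (medians 1.80 and 1.63 on the log2 scale). The part of either in the results with these drugs was not tested.

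ARLNC1, the androgen-induced lncRNA, stood at 20.6, 20.3 and 20.2 scaled CPM in the DMSO libraries. It stood at 3.75, 4.64 and 4.22 with abiraterone and at 2.20, 1.67 and 2.08 with enzalutamide. The 3 groups did not overlap, and enzalutamide left the lowest level. The log2 fold change was -2.28 (SE 0.099, edgeR adjusted p = 2.25e-20) with abiraterone and -3.37 (SE 0.109, edgeR adjusted p = 3.77e-24) with enzalutamide. Set against each other, ARLNC1 was lower with enzalutamide than with abiraterone by a log2 fold change of -1.09 (edgeR adjusted p = 6.67e-08), and it was the 1 member called in that comparison, where 19.8% of genes were called. The protein-coding genes on either side, CMC2 and CDYL2, also fell. CMC2, which encodes a mitochondrial assembly factor, had log2 fold changes of -1.64 with abiraterone and -1.69 with enzalutamide, and CDYL2, a chromodomain protein gene, -0.70 and -1.06. The overlapping gene ENSG00000286221, annotated as protein-coding on the same strand, was at -0.81 (edgeR adjusted p = 0.554) and -0.04 (edgeR adjusted p = 0.979). Whether reads were exchanged between it and ARLNC1 was not tested. Enzalutamide against abiraterone left NEAT1 at -0.38 (edgeR adjusted p = 0.0524), a difference that passed when any 1 of 8 libraries of other groups was left out (adjusted p from 0.0325 to 0.0482). Over all other settings, with 1 library left out or other processing, the value ran from -0.45 to -0.29 (edgeR adjusted p up to 0.188).

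Known androgen-responsive genes are given beside it as a check of the treatment. KLK3, which encodes prostate-specific antigen, fell from a mean of 1450 to 485 scaled CPM with abiraterone and to 304 with enzalutamide. TMPRSS2, an androgen-driven serine protease gene, fell from 250 to 45.9 and 36.0. KLK2 and FKBP5 had log2 fold changes of -2.85 and -2.81 with enzalutamide. Of the 6 genes of this check list 5 fell and 1 rose with either drug, with medians of -1.79 and -2.53 on the log2 scale against 0.00030 and 0.017 over all genes tested.

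PCA3 was rare in these cells, with 18, 22 and 23 counts in the DMSO libraries. Its counts were 3, 5 and 3 with abiraterone and 4, 6 and 7 with enzalutamide, below every DMSO library. Summed over the 3 libraries and divided by depth, PCA3 stood at 19.2% of DMSO with abiraterone (95% counting interval 9.14% to 36.8%) and at 25.3% with enzalutamide (13.9% to 43.8%). Its log2 fold changes were -2.41 (SE 0.472, edgeR adjusted p = 3.84e-05) and -2.02 (SE 0.438, edgeR adjusted p = 1.60e-04). The host gene PRUNE2, on the opposite strand, stood at 1683 scaled CPM with DMSO, far above PCA3, and its log2 fold change was -0.48 with abiraterone and -0.79 with enzalutamide. GCNT1, the nearest other protein-coding gene, was at -1.10 and -0.90. The libraries were stranded. Whether any PRUNE2 reads were assigned to PCA3 was not tested.

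DRAIC moved the other way. It stood at 14.3, 14.8 and 12.97 scaled CPM with DMSO, at 15.8, 16.6 and 19.5 with abiraterone and at 18.7, 18.4 and 16.8 with enzalutamide, and each treated library was above each DMSO library. The log2 fold change was 0.31 (SE 0.079, edgeR adjusted p = 0.00131) with abiraterone and 0.36 (SE 0.078, edgeR adjusted p = 1.94e-04) with enzalutamide. The 2 drugs differed in DRAIC by 0.05 on the log2 scale, with a 95% interval from -0.10 to 0.21. The next protein-coding gene downstream, TLE3, which encodes a transcriptional corepressor, also rose, by 0.82 and 0.92.

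MALAT1 rose with both drugs. Its DMSO libraries held 2538, 2326 and 2260 scaled CPM, the abiraterone libraries 3401, 3936 and 3348 and the enzalutamide libraries 3221, 2999 and 3475. There was no overlap with DMSO, and the log2 fold changes were 0.59 (SE 0.071, edgeR adjusted p = 3.75e-06) and 0.44 (SE 0.070, edgeR adjusted p = 6.43e-05). TALAM1, the antisense transcript at the MALAT1 locus, was at 5.04 scaled CPM with DMSO, at 7.45 with abiraterone and at 8.37 with enzalutamide. Its log2 fold change of 0.74 passed with enzalutamide (edgeR adjusted p = 0.0126). NEAT1, the neighbour of MALAT1, had log2 fold changes of 0.12 (95% interval -0.16 to 0.39) and -0.26 (95% interval -0.54 to 0.01), and its libraries overlapped those of DMSO.

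**Figure D1:**
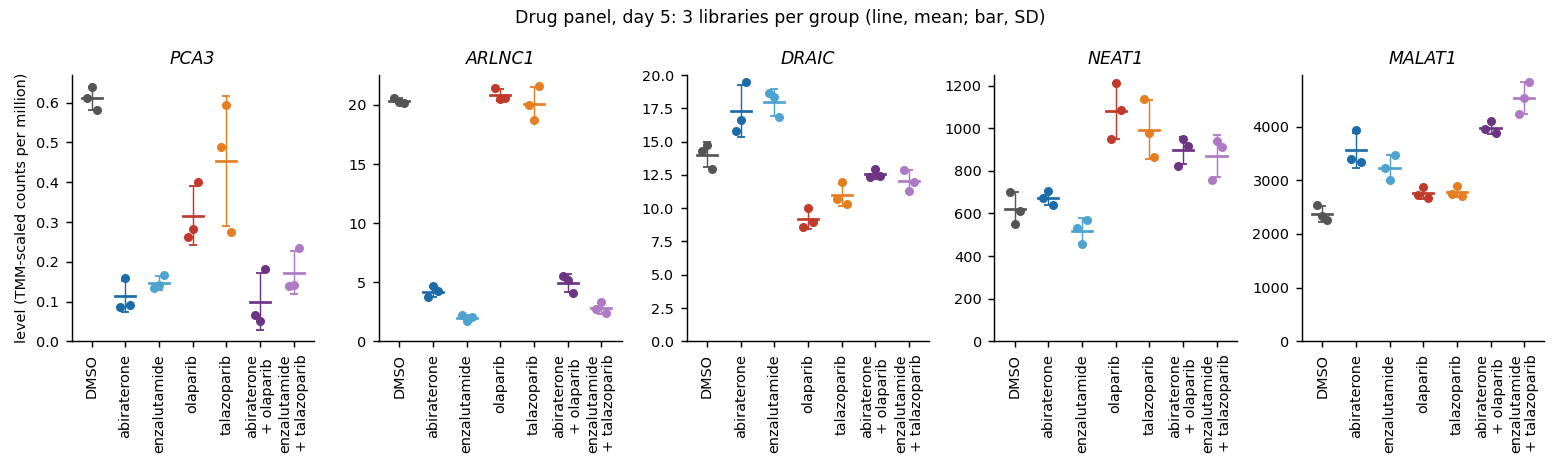
Levels of 5 members in the drug panel, in TMM-scaled CPM, with 1 panel per gene, 1 point per library, a line at the group mean and a bar of 1 SD (n = 3). ARLNC1 and PCA3 are low wherever an androgen pathway inhibitor was given, NEAT1 is high wherever a PARP inhibitor was given, and MALAT1 is highest with enzalutamide plus talazoparib.

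In the panel, PARP inhibition was followed by a rise of NEAT1, a fall of DRAIC and a small rise of MALAT1, while ARLNC1 was not called. With olaparib 3 of the 5 tested members were called, where 35.6% of all genes were called, and with talazoparib 3, where 33.8% were. In each comparison 2 rose and 1 fell. The comparisons with a drug of either class share the same 3 DMSO libraries.

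NEAT1 stood at 703, 551 and 612 scaled CPM with DMSO, at 948, 1211 and 1087 with olaparib and at 1137, 977 and 865 with talazoparib. All 6 treated libraries were above the highest DMSO library. The log2 fold change was 0.80 (SE 0.128, edgeR adjusted p = 1.43e-04) with olaparib and 0.68 (SE 0.128, edgeR adjusted p = 7.22e-04) with talazoparib. CDKN1A, the p53 target that encodes the cell cycle inhibitor p21, went from a mean of 54.1 scaled CPM to 244 with olaparib and 213 with talazoparib, and all 6 genes of the p53 check list rose with either drug. In the abiraterone libraries, where NEAT1 was not called, 4 of the 6 rose and 1 fell (median 0.68), and CDKN1A stood at 93.2 to 97.5 scaled CPM against 46.8 to 58.2 with DMSO. With enzalutamide, where NEAT1 was not called either, 4 rose and 2 fell (53.3% of all genes called). In each combination 5 rose and 0 fell (62.2% and 62.4%). CDKN1A stood at 346 to 355 scaled CPM with abiraterone plus olaparib and at 265 to 268 with enzalutamide plus talazoparib. The part of p53 in the NEAT1 results was not tested. Mitochondrial shares were 12.3% to 12.4% with olaparib and 12.1% to 13.03% with talazoparib, above the DMSO range. The summed stromal and immune markers were 29.0 to 29.8 and 25.4 to 26.8 CPM, against 15.5 to 20.7 with DMSO, with 2 of the 4 called higher and 0 lower with either drug, and PTPRC stayed at or under 1.19 in every library. The part of either in these results was not tested.

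DRAIC stood at 8.56, 10.1 and 8.99 scaled CPM with olaparib and at 10.7, 11.9 and 10.3 with talazoparib, all below the lowest DMSO library at 12.97. Its log2 fold change was -0.61 (SE 0.083, edgeR adjusted p = 3.39e-07) with olaparib and -0.35 (SE 0.081, edgeR adjusted p = 7.97e-04) with talazoparib. Thus DRAIC was above DMSO with both androgen pathway inhibitors and below it with both PARP inhibitors, and TLE3 did likewise, at -0.22 and -0.34 with the PARP inhibitors. In the combinations the genes parted, with TLE3 at 0.41 in the abiraterone combination and 0.60 in the enzalutamide combination, both called, where DRAIC was at -0.15 and -0.21. The gene upstream, RPLP1, which encodes a ribosomal stalk protein, had log2 fold changes of 0.03 to 0.12 with the 4 single drugs.

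The difference in MALAT1 was 0.21 on the log2 scale for olaparib (SE 0.070, edgeR adjusted p = 0.0269) and 0.23 for talazoparib (SE 0.070, edgeR adjusted p = 0.0207). All 6 treated libraries, from 2674 to 2893 scaled CPM, lay above the DMSO libraries, whose highest was 2538. Both calls were lost when either DMSO replicate B or C was left out, with adjusted p from 0.0689 to 0.108, when olaparib replicate A or B was left out (0.0654 and 0.124), when talazoparib replicate A or B was left out (0.0520 and 0.09998), each for its own drug, and with scaling to total counts (0.0758 and 0.0644).

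ARLNC1 held at 21.4, 20.5 and 20.6 scaled CPM with olaparib and at 20.0, 18.7 and 21.6 with talazoparib. Log2 fold changes of 0.04 (95% interval -0.13 to 0.20) and -0.02 (-0.18 to 0.15) bound any change on either side. PCA3 had 10, 10 and 14 counts with olaparib and 17, 24 and 13 with talazoparib. With olaparib its log2 fold change was -0.95 (SE 0.396, edgeR adjusted p = 0.0577) and it stood at 50.02% of DMSO (95% counting interval 31.96% to 77.1%). That difference passed with scaling to total counts (edgeR adjusted p = 0.0463) and in a fit of the compared groups alone (edgeR adjusted p = 0.0324). Over all other settings the value ran from -1.17 to -0.85 (edgeR or DESeq2 adjusted p up to 0.168). PRUNE2 fell by 0.55 on the log2 scale with each PARP inhibitor.

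Talazoparib and olaparib were given at different doses, and 0 of the 5 tested members were called between them by edgeR, where 8.36% of genes were called. DRAIC came closest, higher with talazoparib by 0.26 on the log2 scale (95% interval 0.08 to 0.43, edgeR adjusted p = 0.0533). It was called by DESeq2 (adjusted p = 0.0291) and without a filter on low counts (edgeR adjusted p = 0.0213). It also passed without olaparib replicate B, DMSO replicate C or abiraterone replicate A or C (adjusted p from 0.0373 to 0.0484). Over all other settings the value ran from 0.19 to 0.32 (edgeR adjusted p up to 0.269). DRAIC was the 1 member with an unadjusted p under 0.05 here, as were 3950 genes in all.

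With both drug classes given together, ARLNC1 and PCA3 were low, NEAT1 and MALAT1 were high, and the mean of DRAIC lay between its means with either class. For DRAIC the libraries of enzalutamide plus talazoparib, at 11.3 to 12.9 scaled CPM, overlapped those of talazoparib alone, at 10.3 to 11.9. Abiraterone plus olaparib called 4 of the 5 tested members against DMSO (62.2% of genes), and enzalutamide plus talazoparib called 5 (62.4% of genes).

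ARLNC1 was at 5.54, 5.21 and 4.10 scaled CPM with abiraterone plus olaparib and at 2.70, 3.30 and 2.40 with enzalutamide plus talazoparib. Its log2 fold changes against DMSO were -2.03 and -2.85. Against enzalutamide alone, ARLNC1 was higher with talazoparib added, by 0.52 (SE 0.134, edgeR adjusted p = 0.00256), and the 3 libraries of each group did not overlap. The interaction of enzalutamide and talazoparib in ARLNC1 was 0.53 (SE 0.157, edgeR adjusted p = 0.0209), and it was the 1 member called in that test, where 12.6% of genes were called. It rested on single libraries: without enzalutamide replicate B it was 0.42 (edgeR adjusted p = 0.111), and without enzalutamide plus talazoparib replicate B it was 0.43 (edgeR adjusted p = 0.0992). For abiraterone and olaparib the interaction in ARLNC1 was 0.21 (95% interval -0.07 to 0.50). In that interaction 0 of the 5 tested members were called by edgeR or by DESeq2, where 12.8% of genes were called. The unadjusted p was under 0.05 for 1 member, NEAT1, and 4743 genes. Against abiraterone alone ARLNC1 was at 0.25 with olaparib added (edgeR adjusted p = 0.106), from 0.35 (edgeR adjusted p = 0.0239) without combination replicate C to 0.16 without combination replicate A (edgeR adjusted p = 0.402) or abiraterone replicate A (edgeR adjusted p = 0.400).

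DRAIC stood at 12.3, 12.9 and 12.4 scaled CPM with abiraterone plus olaparib and at 12.9, 11.3 and 12.003 with enzalutamide plus talazoparib. Against DMSO the log2 fold change was -0.15 (95% interval -0.32 to 0.01) and -0.21 (SE 0.080, edgeR adjusted p = 0.0203). The second call was lost without DMSO replicate A or B, without combination replicate B or C, and with scaling to total counts, with adjusted p from 0.0517 to 0.120. The first passed without DMSO replicate C (-0.21, edgeR adjusted p = 0.0392). Adding olaparib to abiraterone changed DRAIC by -0.46 on the log2 scale (edgeR adjusted p = 2.88e-05), and adding talazoparib to enzalutamide by -0.57 (edgeR adjusted p = 3.53e-07). Adding abiraterone to olaparib raised it by 0.45 (edgeR adjusted p = 2.40e-05). Adding enzalutamide to talazoparib gave 0.14 (edgeR adjusted p = 0.144), and 0.22 without talazoparib replicate B (edgeR adjusted p = 0.0332) or with scaling to total counts (edgeR adjusted p = 0.0206).

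MALAT1 was highest in the combinations, at 3957, 4111 and 3874 scaled CPM with abiraterone plus olaparib and at 4230, 4530 and 4838 with enzalutamide plus talazoparib. The log2 fold changes against DMSO were 0.75 (SE 0.071, edgeR adjusted p = 1.68e-07) and 0.93 (SE 0.071, edgeR adjusted p = 1.14e-08). Talazoparib added to enzalutamide raised MALAT1 by 0.49 (edgeR adjusted p = 6.38e-05). Olaparib added to abiraterone gave 0.16 (edgeR adjusted p = 0.107), and 0.24 (edgeR adjusted p = 0.0186) without abiraterone replicate B. By group means TALAM1 was likewise highest in the combinations, at 9.49 and 12.6 scaled CPM. With talazoparib alone it stood at 5.89, 12.6 and 5.70, and the second library, replicate B, lay above all abiraterone plus olaparib libraries and 2 of the 3 libraries of enzalutamide plus talazoparib. The TALAM1 log2 fold change with talazoparib was 0.68 (edgeR adjusted p = 0.0306). Without replicate B, a fit chosen after seeing the data, it was 0.19 (edgeR adjusted p = 0.182), and the call was also lost without any 1 of the 3 DMSO libraries (edgeR adjusted p from 0.0599 to 0.0968). The enzalutamide call of TALAM1 was kept without each of the 21 panel libraries in turn. Mitochondrial shares were 13.2% to 13.8% in the combinations, against 9.68% to 10.1% with DMSO. The summed stromal and immune markers were 27.1 to 29.7 CPM, against 15.5 to 20.7, with 3 of the 4 called higher and 0 lower with either combination. The part of either in these results was not tested.

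NEAT1 stood at 824, 948 and 916 scaled CPM with abiraterone plus olaparib and at 758, 938 and 912 with enzalutamide plus talazoparib, all above the DMSO libraries. Their log2 fold changes were 0.53 (SE 0.128, edgeR adjusted p = 0.00213) and 0.48 (SE 0.128, edgeR adjusted p = 0.00395). Against enzalutamide alone the rise was 0.75 (edgeR adjusted p = 3.26e-04). Against abiraterone alone it was 0.41 (edgeR adjusted p = 0.0247), a call lost without abiraterone replicate A or C or combination replicate B or C, with adjusted p from 0.0665 to 0.0907. Against olaparib alone it was at -0.27 (edgeR adjusted p = 0.0832), from -0.34 (edgeR adjusted p = 0.0452) without olaparib replicate A to -0.17 (edgeR adjusted p = 0.329) without olaparib replicate B. PCA3 had 2, 2 and 5 counts with abiraterone plus olaparib and 7, 6 and 8 with enzalutamide plus talazoparib, at log2 fold changes of -2.66 and -1.84 against DMSO. Over all other settings these ran from -3.33 to -2.31 and from -2.08 to -1.71.

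In counts, olaparib added to abiraterone called 2 of the 5 tested members (29.2% of genes), and talazoparib added to enzalutamide called 4 (34.4%). Abiraterone added to olaparib called 4 (56.6%), and enzalutamide added to talazoparib called 3 (58.8%). PCA3 fell in both of the latter, with log2 fold changes of -1.71 (edgeR adjusted p = 0.00499) and -1.40 (edgeR adjusted p = 0.00502), the second lost without talazoparib replicate B (-1.12, edgeR adjusted p = 0.0507). The first ran from -2.38 to -1.36 over the other settings in which PCA3 was tested.

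**Figure D2:**
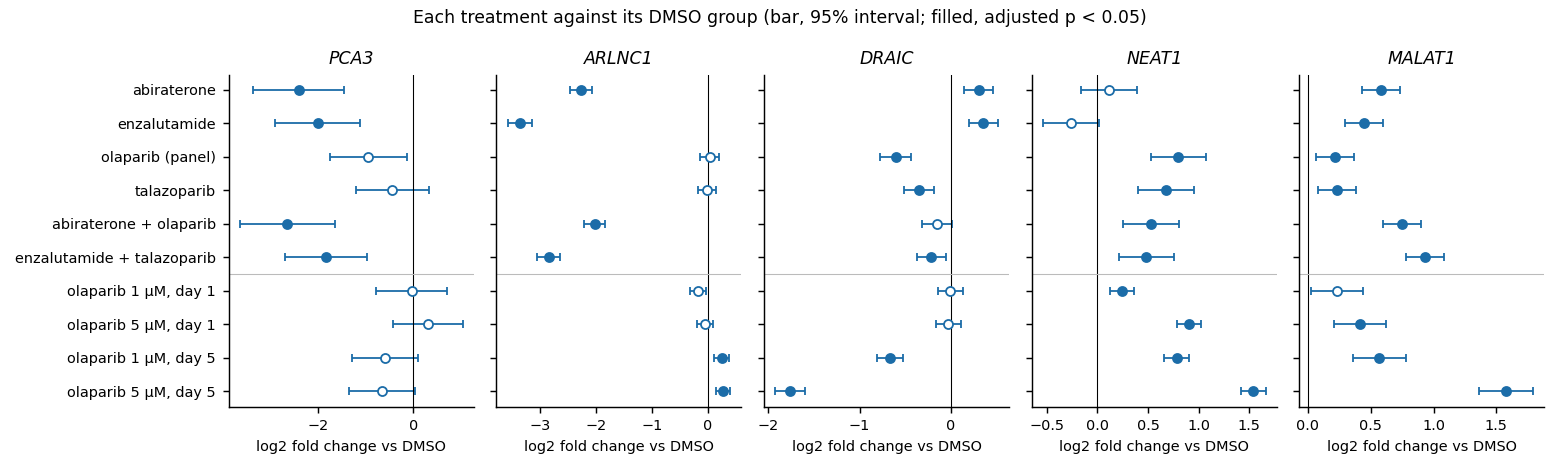
Log2 fold change of each treatment against its own DMSO group for 5 members, with 95% intervals from the edgeR fit, filled where the adjusted p was under 0.05. The panel is above the grey line and the time course below it. ARLNC1 is near 0 with PARP inhibitors alone in the panel and at 0.25 and 0.27 with olaparib at 1 and 5 µM on day 5 of the time course. DRAIC, NEAT1 and MALAT1 move furthest with olaparib at 5 µM on day 5, at -1.76, 1.54 and 1.58.

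The time course asked how dose and duration of olaparib shape the response, and the members that were called differed in when they were first called. NEAT1 had already risen on day 1, while DRAIC was not called on day 1 and was low on day 5. On day 1, olaparib at 1 µM called 1 of the 5 (15.8% of genes) and at 5 µM called 2 (45.0%). On day 5, olaparib at 1 µM called 4 (46.3%) and at 5 µM called 4 (68.2%).

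NEAT1 on day 1 stood at 569, 542 and 540 scaled CPM with DMSO, at 634, 643 and 679 with 1 µM and at 1026, 1019 and 1039 with 5 µM. On day 5 it stood at 452, 492 and 411 with DMSO, at 784, 767 and 779 with 1 µM and at 1370, 1233 and 1330 with 5 µM. The 6 groups did not overlap, with olaparib at 5 µM on day 5 highest and DMSO on day 5 lowest. The log2 fold changes against same-day DMSO were 0.24 (SE 0.055, edgeR adjusted p = 0.00919) and 0.90 (SE 0.055, edgeR adjusted p = 1.43e-08) on day 1. On day 5 they were 0.78 (SE 0.056, edgeR adjusted p = 5.81e-08) and 1.54 (SE 0.056, edgeR adjusted p = 1.24e-11). The step from 1 to 5 µM added 0.66 on day 1 and 0.76 on day 5. The effect grew between the days by 0.54 at 1 µM (edgeR adjusted p = 1.47e-04) and by 0.64 at 5 µM (edgeR adjusted p = 1.12e-05). CDKN1A, by comparison, was already at 717 scaled CPM on day 1 with 5 µM and at 731 on day 5, from 54.7 and 41.1 with DMSO.

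Against same-day DMSO, MALAT1 rose most on day 5. Its day 1 libraries held 2222, 2132 and 2193 scaled CPM with DMSO, 2458, 2494 and 2734 with 1 µM and 3246, 3081 and 2401 with 5 µM. On day 5 they held 1785, 1770 and 1649 with DMSO, 2378, 2607 and 2734 with 1 µM and 5573, 4849 and 5129 with 5 µM. The log2 fold change at 5 µM was 0.41 (SE 0.097, edgeR adjusted p = 0.00330) on day 1 and 1.58 (SE 0.099, edgeR adjusted p = 5.41e-09) on day 5, and the difference between the days was 1.16 (SE 0.137, edgeR adjusted p = 7.57e-06). The day 1 call was lost in a fit of the groups compared alone (0.42, edgeR adjusted p = 0.0665). At 1 µM it was 0.23 (edgeR adjusted p = 0.140) on day 1 and 0.57 (SE 0.097, edgeR adjusted p = 2.89e-04) on day 5. The mean with 1 µM was nearly the same on both days, at 2562 and 2573 scaled CPM. The mean with DMSO was lower on day 5, at 1735 against 2182 on day 1. The library of 5 µM on day 1 at 2401 stood apart from its 2 fellows. Without it, the step from 1 to 5 µM on day 1 went from 0.18 (edgeR adjusted p = 0.193) to 0.30 (edgeR adjusted p = 0.00742), the 1 µM effect on day 1 passed at an adjusted p of 0.0299 and its growth to day 5 at 0.0147. Without 5 µM day 1 replicate 1 the step was 0.10 (edgeR adjusted p = 0.560). On day 5 the dose step was 1.01 (SE 0.097, edgeR adjusted p = 1.00e-06). On day 1 mitochondrial shares were 9.21% to 9.28% with DMSO, 9.70% to 10.2% with 1 µM and 10.9% to 10.98% with 5 µM, and the summed stromal and immune markers were 17.4 to 19.0, 19.9 to 21.7 and 21.3 to 22.4 CPM. On day 5 mitochondrial shares moved in the same order, with 8.24% to 8.38% in DMSO on day 5, 10.6% to 10.96% with 1 µM and 14.3% to 14.6% with 5 µM. The marker sums were 17.7 to 18.7, 29.0 to 30.1 and 38.4 to 41.0 CPM in the same groups. The part of either in the NEAT1, MALAT1 and DRAIC results was not tested.

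DRAIC on day 1 ran from 8.73 to 9.41 scaled CPM over all 9 libraries, with the 3 groups overlapping. The log2 fold changes were -0.004 (95% interval -0.14 to 0.13) with 1 µM and -0.03 (-0.16 to 0.11) with 5 µM. On day 5 it stood at 9.72, 9.99 and 10.1 with DMSO, at 6.49, 6.10 and 6.23 with 1 µM and at 3.16, 2.72 and 2.90 with 5 µM. The groups of day 5 did not overlap, and 5 µM left 29.4% of the DMSO mean. The log2 fold changes were -0.66 (SE 0.070, edgeR adjusted p = 4.05e-10) and -1.76 (SE 0.079, edgeR adjusted p = 4.12e-21). The effects differed between the days by -0.66 at 1 µM (edgeR adjusted p = 1.13e-06) and -1.74 at 5 µM (edgeR adjusted p = 9.34e-17), and the dose step on day 5 was -1.10 (edgeR adjusted p = 8.37e-14).

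ARLNC1 on day 1 stood at 10.0, 10.8 and 10.4 scaled CPM with DMSO, at 8.93, 9.83 and 9.05 with 1 µM and at 10.96, 9.17 and 10.2 with 5 µM. On day 5 it stood at 13.7, 12.3 and 13.9 with DMSO, at 16.2, 14.3 and 16.9 with 1 µM and at 16.3, 16.2 and 15.7 with 5 µM. The rise on day 5 was 0.25 (SE 0.064, edgeR adjusted p = 0.00170) and 0.27 (SE 0.065, edgeR adjusted p = 3.50e-04), and the dose step there was 0.02 (95% interval -0.11 to 0.15). The effects differed between the days by 0.42 (edgeR adjusted p = 8.09e-04) and 0.32 (edgeR adjusted p = 0.00544), the latter 0.18 (edgeR adjusted p = 0.102) with scaling to total counts. All 6 androgen response check genes rose at both doses on day 5, where 46.3% and 68.2% of all genes tested were called. On day 1, 0 rose and 2 fell with 1 µM (15.8% of all genes called) and 1 rose and 3 fell with 5 µM (45.0%). In the panel 5 of the 6 rose and 0 fell with olaparib and with talazoparib (medians 0.37 and 0.31), where ARLNC1 was at 0.04 and -0.02 and was not called. Of all genes 35.6% and 33.8% were called there. On day 5 of the time course the mean of TMPRSS2 went from 117 scaled CPM with DMSO to 234 with 1 µM and 383 with 5 µM, and that of KLK3 from 1245 to 1494 and 1879. On day 1 KLK3 ran the other way, at 1024 to 1101 scaled CPM with DMSO, 948 to 989 with 1 µM and 846 to 886 with 5 µM.

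PCA3 had 9 to 36 counts per library in the time course and was called in none of its comparisons by edgeR, nor by DESeq2 where that gave an adjusted p. The unadjusted p from edgeR was under 0.05 in 1 of them, DMSO on day 5 against day 1, at a log2 fold change of 0.77. The library with 36 counts, DMSO day 5 replicate 3, decided much of this, and without it the value was 0.34 (edgeR adjusted p = 0.592). Its log2 fold change at 5 µM on day 5 was -0.65 (95% interval -1.35 to 0.04, edgeR adjusted p = 0.0887), and it ran from -0.84 (edgeR adjusted p = 0.0438) without DMSO day 5 replicate 2 to -0.23 (edgeR adjusted p = 0.612) without DMSO day 5 replicate 3, with -0.42 (edgeR adjusted p = 0.326) without 5 µM day 5 replicate 2. Its difference between the days at 5 µM was -0.96 (edgeR adjusted p = 0.101), and it ran from -1.22 (edgeR adjusted p = 0.0376) without 5 µM day 1 replicate 2 to -0.53 (edgeR adjusted p = 0.404) without DMSO day 5 replicate 3.

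**Figure D3:**
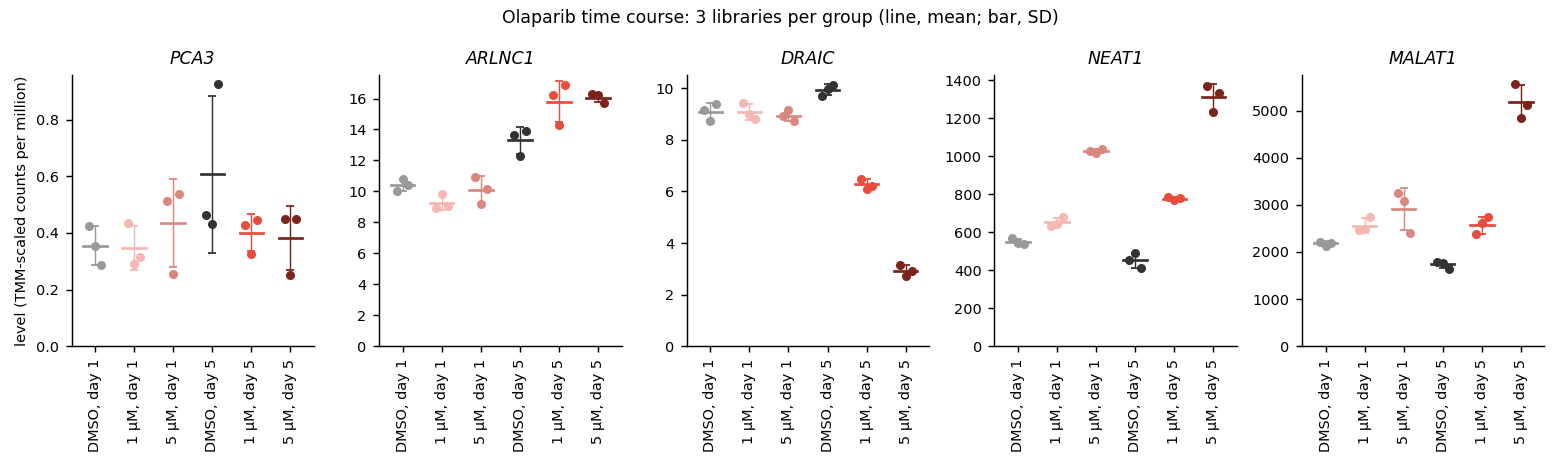
Levels of 5 members in the olaparib time course, in TMM-scaled CPM, with 1 point per library, a line at the group mean and a bar of 1 SD (n = 3). NEAT1 climbs with dose on both days, MALAT1 most with 5 µM on day 5 and DRAIC is low with olaparib on day 5.

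In counts, the step from 1 to 5 µM called 1 of the 5 tested members on day 1 (28.8% of genes) and 3 on day 5 (53.6%). The effect of 1 µM differed between the days in 3 (29.8% of genes) and that of 5 µM in 4 (54.9%). Vehicle alone also moved 3 members between day 1 and day 5, where 24.5% of genes were called. ARLNC1 was higher on day 5 by 0.35 (edgeR adjusted p = 1.41e-04), NEAT1 lower by -0.28 (edgeR adjusted p = 0.00219) and MALAT1 lower by -0.33 (edgeR adjusted p = 0.0252). The MALAT1 call was lost without DMSO day 1 replicate 1 or 3 or DMSO day 5 replicate 2 or 3, with adjusted p from 0.0546 to 0.0909. The NEAT1 call was lost in a fit of the 2 DMSO groups alone (edgeR adjusted p = 0.0639).

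Olaparib at 1 µM for 5 days was given in both experiments, and the difference between its effects, panel minus time course, was tested over 19392 genes and 39 libraries. Of the 5 tested members 0 were called by edgeR, where 1.94% of genes were called. The unadjusted p was under 0.05 for 2 members, MALAT1 and ARLNC1, and 2584 genes. NEAT1 differed by 0.002 (95% interval -0.29 to 0.29) and DRAIC by 0.04 (-0.17 to 0.26). MALAT1 rose less in the panel, by -0.37 on the log2 scale (95% interval -0.61 to -0.13, edgeR adjusted p = 0.112), and DESeq2 called it (adjusted p = 0.0360). ARLNC1 differed by -0.23 (95% interval -0.44 to -0.01, edgeR adjusted p = 0.333).

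The neighbours NEAT1 and MALAT1 moved together over the time course and not over the panel. Over the 21 panel libraries Pearson's r of their log2 CPM was 0.14, and over the 18 time course libraries it was 0.92. These are descriptions over libraries that share treatments, so they carry no p. In the panel, MALAT1 was raised more by androgen pathway inhibitors and NEAT1 by PARP inhibitors. FRMD8, on the other side of NEAT1, had log2 fold changes of 0.27, 0.04, 0.36 and 0.18 with abiraterone, enzalutamide, olaparib and talazoparib.

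**Figure D4:**
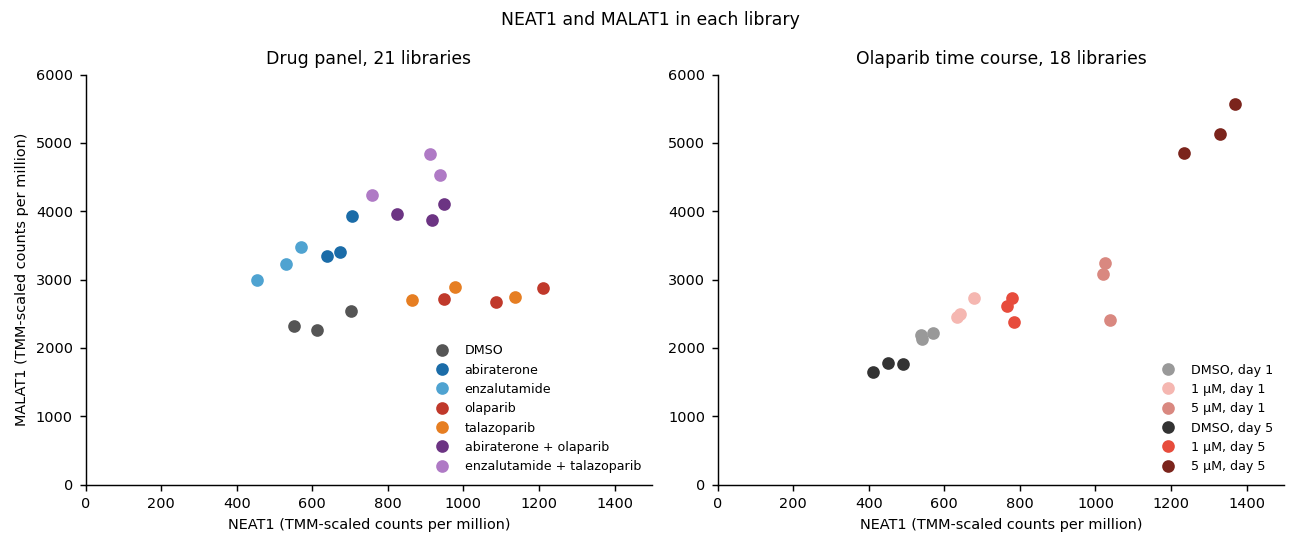
MALAT1 against NEAT1 in each library, both in TMM-scaled CPM on linear axes, with the panel on the left and the time course on the right, coloured by group. In the panel the PARP inhibitor libraries extend along the NEAT1 axis and the androgen pathway inhibitor libraries along the MALAT1 axis, whereas the time course libraries rise on both.

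NEAT1 builds paraspeckles with proteins, so 15 genes for paraspeckle proteins were read beside it. In the time course most of them fell with olaparib, where NEAT1 rose. Between day 1 and day 5 in vehicle, where NEAT1 fell, 9 of them also fell and 2 rose (median -0.09, 24.5% of all genes called). At 5 µM, 14 of the 15 fell and 0 rose on day 1 (median -0.30 on the log2 scale), where 45.0% of all genes were called in either direction. On day 5, 13 fell and 0 rose (median -0.49), where 68.2% of all genes were called. The medians over all genes tested were 0.015 and -0.0083. At 1 µM, 10 fell and 0 rose on day 1 (15.8% of all genes called), and 12 fell and 1 rose on day 5 (46.3%). In the panel, 8 fell and 2 rose with olaparib (35.6%) and 7 fell and 0 rose with talazoparib (33.8%). With abiraterone 5 fell and 4 rose (52.9%) and with enzalutamide 4 fell and 6 rose (53.3%), shares of the list near those of all genes.

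Among them HNRNPH3, a splicing regulator, had log2 fold changes of -0.37 with olaparib in the panel and -1.005 with 5 µM on day 5. NUDT21, a subunit of the cleavage factor that selects poly(A) sites, was at -0.33 and -0.94, and these values of both genes passed the threshold. SFPQ and NONO, the core paraspeckle pair, named here after their values were seen, differed in size. SFPQ was at -0.88 and NONO at -0.07 with 5 µM on day 5, both called, while NONO was at 0.02 with olaparib in the panel (edgeR adjusted p = 0.616).

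**Figure D5:**
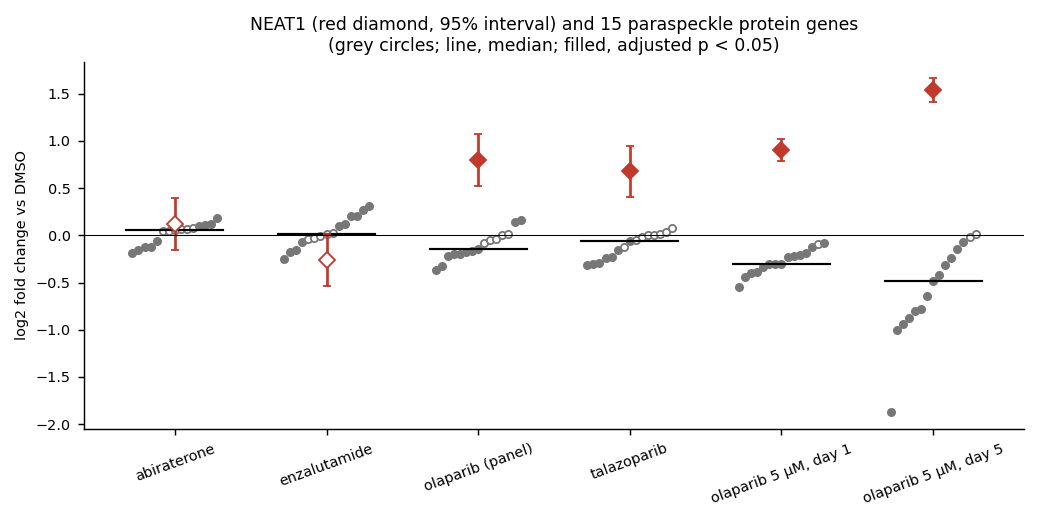
Log2 fold change against DMSO of NEAT1 (red diamond with 95% interval) and of 15 genes for paraspeckle proteins (grey circles, black line at the median, filled where the adjusted p was under 0.05) in 6 comparisons. With olaparib at 5 µM on day 5, NEAT1 lies at 1.54 and the protein genes have a median of -0.49.

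The 15 genes for nuclear speckle proteins, the company of MALAT1, were read likewise. With 5 µM on day 5, 10 fell and 4 rose, with a median of -0.27, where 68.2% of all genes were called. With abiraterone 7 rose and 1 fell, a share of the list near the 52.9% called among all genes. With enzalutamide, where MALAT1 also rose, 4 rose and 5 fell (median -0.03, 53.3% of all genes called). In the panel 1 rose and 5 fell with olaparib (35.6%), and 6 rose and 5 fell with talazoparib (33.8%). Among those that rose with abiraterone were CLK1, a kinase of splicing factors, at 0.35 and SRRM2, a speckle scaffold protein, at 0.31. SRSF3, a splicing factor, fell by 0.28 with olaparib in the panel. On day 1 at 5 µM, 12 of the 15 fell and 1 rose, where 45.0% of all genes were called.

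Other lncRNAs known from prostate were read from a list of 23, of which 15 could be tested. Of these 15, 7 fell and 3 rose with abiraterone and 8 fell and 2 rose with enzalutamide (medians -0.13 and -0.63). Over all genes tested 52.9% and 53.3% were called there, and over all lncRNA genes tested 27.8% and 29.4%. With olaparib 7 rose and 1 fell, and with talazoparib 8 rose and 1 fell (medians 0.49 and 0.51), where 35.6% and 33.8% of all genes and 12.3% and 11.8% of lncRNA genes were called. With 5 µM on day 5, 13 rose and 1 fell (median 1.08), where 68.2% of all genes and 47.1% of lncRNA genes were called. CTBP1-AS fell by 2.16 with enzalutamide and rose by 0.65 with olaparib, and PART1 fell by 1.40 and rose by 1.01. PCAT6 rose by 0.74 with olaparib, and was at 0.12 with enzalutamide (edgeR adjusted p = 0.522). Both CTBP1-AS and PART1 thus fell with an androgen pathway inhibitor as ARLNC1 did and rose with olaparib in the panel, where ARLNC1 was at 0.04.

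Of 18 other nuclear lncRNAs, 16 could be tested in the panel and 14 in the time course. In the panel 6 rose and 2 fell with abiraterone, and 7 rose and 2 fell with enzalutamide. With olaparib 4 rose and 3 fell, and with talazoparib 3 rose and 4 fell. These counts stand beside 52.9%, 53.3%, 35.6% and 33.8% called among all genes. Among lncRNA genes 27.8%, 29.4%, 12.3% and 11.8% were called. The counts of the time course are not given. CRNDE rose by 1.07 with abiraterone and 1.10 with enzalutamide and fell by 0.49 with olaparib, the directions DRAIC took. FIRRE, a lncRNA transcribed from the X chromosome, rose by 0.74 with abiraterone.

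The genes whose levels ran most like each member over the 21 panel libraries, among 12402 others with a mean of at least 100 counts, were found by Pearson's r of log2 CPM, and the time course gives the same measure in 18 libraries not used to choose them. For DRAIC the r was also high in the time course. There DRAIC differed mainly by its fall with olaparib on day 5. At that time 46.3% and 68.2% of all genes were called with 1 and 5 µM. How many other genes reach such an r in the time course was not counted. NUP93, a nuclear pore protein gene, had r = 0.95 in the panel and 0.98 in the time course, SLC27A2, a fatty acid transporter gene, 0.94 and 0.96, and INTS8, an Integrator subunit gene, 0.93 and 0.93. For ARLNC1 they were ST6GALNAC1 (0.99 and 0.42), ZNF385B (0.99 and -0.69) and PGC (0.99 and 0.90). For NEAT1 they were ZNF276 (0.97 and 0.51), LRRC75B (0.95 and 0.63) and RHOT2 (0.95 and 0.83), and for MALAT1 NEIL1 (0.97 and 0.70), CFAP69 (0.96 and 0.58) and CCNL2 (0.96 and 0.87). For PCA3, at its low counts, they were CRIM1 (0.92 and 0.35), PGBD4 (0.91 and -0.21) and TJP1 (0.91 and 0.04).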

How the data were processed

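The authors deposited a table of gene-level estimated counts, stored as whole numbers, for 39 stranded messenger RNA libraries of C4-2B cells. Per the labels and the study's methods, reads were trimmed with Trim Galore, aligned to GRCh38 with STAR and quantified with Salmon in the nf-core/rnaseq pipeline, against a GENCODE release 1 later than that used here. Symbols and coordinates came here from GENCODE v44, which paired 62666 of 63187 gene IDs. Some genes that the naming rule takes are not reported here. Estimated counts share reads between overlapping genes by a model, so PCA3 and PRUNE2, or MALAT1 and TALAM1, may exchange some. The genes of these pairs lie on opposite strands. ARLNC1 and ENSG00000286221, which had 1133 counts in all, overlap on the same strand, where strand cannot separate their reads, and they may exchange some too.

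Genes were tested with edgeR 4.0.16 (R 4.3.3), with TMM scaling, the filterByExpr filter by group, and 1 robust quasi-likelihood fit for each of the panel and the time course, and for both together. P-values were adjusted by Benjamini-Hochberg over all genes tested at a threshold of 0.05. SE and 95% intervals are from the same fit. The code was tested on simulated data. Alternatives were DESeq2 1.42.0 with a local fit, RLE factors, total count scaling, library sizes without the 6 members, no filter, only the groups compared, a replicate block, and leaving out each library in turn. Replicates of a group differed by more than sampling noise, with a chi-square over its degrees of freedom of 2.11 to 5.63 over 39 pairs.

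The members and gene lists were chosen with earlier results of these data known. The text names all members, up to 3 genes per list with the largest called change in the 4 comparisons of a single drug with DMSO in the panel at a mean of at least 100 counts, KLK3, TMPRSS2 and CDKN1A, the neighbours of members, and the 3 genes most like each member. Samples were grouped by GEO's labels.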

Additional observations from a re-analysis of the deposited data

Results flagged for a closer look

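The effect of a treatment differed between conditions in 8 member results by the edgeR test of the difference itself. The effect of talazoparib on ARLNC1 was higher with enzalutamide than without by 0.53 on the log2 scale. Between day 1 and day 5, the effect of olaparib at 1 µM differed by 0.42 in ARLNC1, -0.66 in DRAIC and 0.54 in NEAT1. At 5 µM it differed by 0.32 in ARLNC1, -1.74 in DRAIC, 0.64 in NEAT1 and 1.16 in MALAT1. In groups of 3 libraries no test of single libraries that stand apart was run.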

How the results depend on the processing

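Over the 120 member results, no alternative reversed a called direction. Of 824 values under the alternatives 806 kept their side of the threshold, 12 passed it newly and 6 lost it, and of 2340 values without a library 2295 kept it, 22 passed newly and 23 lost it. The number of members called moved from 1 to 2 for enzalutamide against abiraterone with RLE factors and with DESeq2 (NEAT1 in both), from 0 to 1 for talazoparib against olaparib with no filter and with DESeq2 (DRAIC in both), from 1 to 2 for the enzalutamide by talazoparib interaction with DESeq2 (MALAT1), from 1 to 2 for olaparib at 1 µM on day 1 (MALAT1) and from 2 to 1 for 5 µM on day 1 in a fit of the groups compared alone (MALAT1), from 0 to 1 for panel minus time course with DESeq2 (MALAT1), with scaling to total counts from 3 to 2 for talazoparib (MALAT1), from 5 to 4 for enzalutamide plus talazoparib (DRAIC), from 3 to 4 for enzalutamide added to talazoparib (DRAIC) and from 4 to 3 for the 5 µM difference between days (ARLNC1), in a fit of the groups compared from 3 to 4 for olaparib in the panel (PCA3) and from 3 to 2 for DMSO over time (NEAT1), from 3 to 4 for the 1 µM difference between days with DESeq2 and in a fit of the groups compared (MALAT1, adjusted p = 0.0362 and 0.0173), and from 4 to 3 for abiraterone added to olaparib in a fit of the groups compared, where PCA3 did not pass the filter. The cause was not tested.

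Without each library in turn, the number of members called ran from 2 to 3 for olaparib in the panel, talazoparib and DMSO over time, 4 to 5 for both combinations against DMSO, abiraterone added to olaparib, 5 µM on day 5 and its difference between days, 1 to 2 for enzalutamide against abiraterone, 1 µM on day 1 and the dose step on day 1, 0 to 1 for talazoparib against olaparib and the enzalutamide by talazoparib interaction, 1 to 3 for olaparib added to abiraterone, and 3 to 4 for the 1 µM difference between days, and was the same in the other comparisons. For panel minus time course only the 12 libraries compared were left out. The number of genes called in talazoparib against olaparib, 1557, was 595 to 1035 without olaparib replicate A, B or C or talazoparib replicate B or C. For 1 µM on day 1, 2928, it was 1932 without DMSO day 1 replicate 1. For panel minus time course, 377, it was 673 with DESeq2, 589 without panel DMSO replicate C, and 176 to 237 without panel DMSO replicate B, olaparib replicate C, or replicate 2 or 3 of either day 5 group.

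Replicate letters and numbers did not pair the libraries: correlations of deviations from group means ran from -0.19 to 0.23 over 63 same-letter pairs and from -0.39 to 0.21 over 45 same-number pairs, and 5 of 21 and 2 of 18 libraries correlated best with their own. With a replicate block the number of members called was the same in all 24 comparisons, for example 4 with abiraterone and 5 with enzalutamide plus talazoparib, and genes called went from 9853 to 9808 with abiraterone. Depth limits PCA3 and PCGEM1 most.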
